A study of Mus musculus with 11 samples.

Results

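The genes described here are protein-coding genes whose RNA was raised in bile duct cells of the mouse liver at the end of a bile duct injury and was still above every control library after recovery. They were chosen by measured values. A member had its lowest recovery library at 1.5 times its highest control library or more, its mean at the end of injury at 1.5 times the control mean or more, and a recovery mean of 2 FPKM or more, where FPKM is the count of fragments scaled to gene length and library size. Of 22032 protein-coding genes in a table of 43346 genes, 108 met the 3 conditions. Of these, 12 are left out by symbol, among them Ccl2, Vcam1, Timp1 and Rgs5, and 96 are described. Because the comparisons of injury and of recovery with control chose these genes, their values there are given as a description, with no test.

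RNA was sequenced from 11 libraries of wildtype C57BL/6 male mice aged 14 to 16 weeks. The Control group (4 libraries) ate chow. The DDC group (4 libraries) ate for 10 days a diet with DDC, a porphyrin-forming compound that injures bile ducts. The R15 group (3 libraries) ate the DDC diet for 10 days and was returned to chow for 15 days. In all 3 groups cells of the dissociated liver were taken with magnetic beads against EpCAM (CD326), a surface protein of bile duct epithelium, over a pair of columns. The selection rests on a surface protein and no reporter marks the cells, so any liver cell that was carried through the columns is in the RNA. In such bulk RNA, fewer cells of a type and less RNA per cell cannot be told apart. The labels number the libraries within each group and give no link between animals of different groups. They do not say whether a library is 1 mouse or a pool, so SDs and p-values measure the spread between these samples, which may be in part technical.

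Cholangiocytes are the epithelial cells that line the bile ducts. In cholestatic injury they multiply and take up a secretory, inflammatory state known as the ductular reaction, in which they release chemokines, cytokines, proteases and matrix proteins toward neighbouring cells. Cholangiocytes and hepatocytes come from a common embryonic precursor, and plasma proteins such as clotting factors are classically made by hepatocytes.

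The libraries held 49339240 to 72929107 reads, and an FPKM of 0.9 to 1.1 rested on a median of 122.5 reads. The summed FPKM of 18 cholangiocyte markers (Epcam, Krt19, Sox9 and others) was 10255 to 14195 in all 11 libraries, so the labelled cell type was present throughout. Markers of other cells moved between groups. The sum of 20 macrophage and Kupffer cell markers was 231 to 262 in Control and 1784 to 2974 in DDC, and it was 226, 912 and 271 in R15 1, 2 and 3. The sum of 20 hepatocyte markers was 4653 to 5439 in Control, 2251 to 3035 in DDC and 3932, 3126 and 4400 in R15 1, 2 and 3. Between Control and DDC the means of Alb and Ambp, its largest parts, fell from 2773 to 1028 and from 1166 to 754 FPKM. The other hepatocyte markers moved both ways: Ttr fell from 390 to 171 FPKM, and Trf rose from 192 to 289. All 20 genes of either list were found and none was at 0 in a whole group. R15 2 had the highest macrophage sum of the 3 R15 libraries, with all 20 markers highest there. It had the lowest hepatocyte sum, of which Alb and Ambp made up 72.6%. Of the 20 hepatocyte markers, 10 were lowest and 5 highest in R15 2. Values without R15 2 are given where they bear on a result. Pancreatic acinar transcripts summed to 1121 or more in 5 libraries (Control 1, 2 and 3, DDC 1 and R15 3) and to 15.7 or less in the others. Gastric mucous transcripts summed to 11362 in Control 3 and to 163 or less elsewhere.

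The members were mostly genes of low control expression. The median of the members' group means was 1.23 FPKM in chow-fed mice, 5.90 at the end of DDC and 5.34 after recovery, and 38 of the 96 had a control mean under 1 FPKM. Their median fold over Control was 3.28 in DDC and 3.65 in R15. The 1777 other protein-coding genes with a DDC mean of 2 FPKM or more and 1.5 times Control or more had medians of 3.54, 10.4 and 4.71 FPKM, and folds of 2.41 and 1.21. These medians follow from the choice of genes. Of the 96 members, 82 had every DDC library above every Control library. The rule favours such members and the share over all genes was not taken, so nothing is read from this count. The other 14 were raised in the DDC mean only, with overlapping libraries: Car14, Pdzk1, Slc6a13, Gldc, Abca6, Serpinf1, Flnc, Qprt, Gcgr, Cdh2, Tfr2, Pla2g12b, Igfals and Mug1. At the threshold, the ratio of the lowest R15 to the highest Control library was 1.5 for Tifa, 1.51 for Slc16a6 and 1.51 for Cxcl1 just inside. It was 1.49 for Cacna2d1, 1.49 for Ccr2 and 1.48 for Drc1 just outside.

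The rule set no ratio between R15 and DDC, though it bounded this comparison for members low in DDC. The comparison asks whether a member's level after recovery was below, near or above that at the end of the diet. It was tested on log2(FPKM + 1) with limma over all 15264 genes with 1 FPKM or more in 3 or more libraries, and all 96 members were tested. At an adjusted p under 0.05, 43 members were lower in R15 than in DDC, 31 were higher and 22 did not pass. Of all genes tested, 28.8% were lower, 33.4% were higher and 62.2% passed in either direction. These shares are background, and nothing is read from the members' counts against them, since values of both groups entered the rule. The median member differed by -0.15 log2 (range -3.23 to 1.72), against 0.04 over all genes. Choosing genes with a high DDC mean can push this difference down, and choosing high R15 values can push it up. Of the 31 higher members, 9 reached 1 FPKM in 3 libraries only through R15 (Aqp9, Car14, F9, Gcgr, Gldc, Ms4a4d, Nnmt, Pdzk1 and Tfr2). These 9 had to be higher in R15 to be tested, so their values are given with no p, and 22 of the 31 do not rest on R15 for the filter. The floor of 2 FPKM for the R15 mean also fixed the direction for any member with a DDC mean under 2 FPKM. The median DDC mean of the 31 higher members was 1.80 FPKM. Outside the 9, this held for Abca6, Enpp2, Flnc, Mug2, Slc6a13 and Slit2 among others, and their values are likewise given with no p. Among the 1777 other raised genes, where low R15 values were part of not being chosen, 1630 were lower in R15, 2 were higher and the median was -0.88. Every R15 library lay below every DDC library for 43 members, beside 31.0% of all genes, and above every DDC library for 28 members, beside 35.6%.

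**Figure D1:**
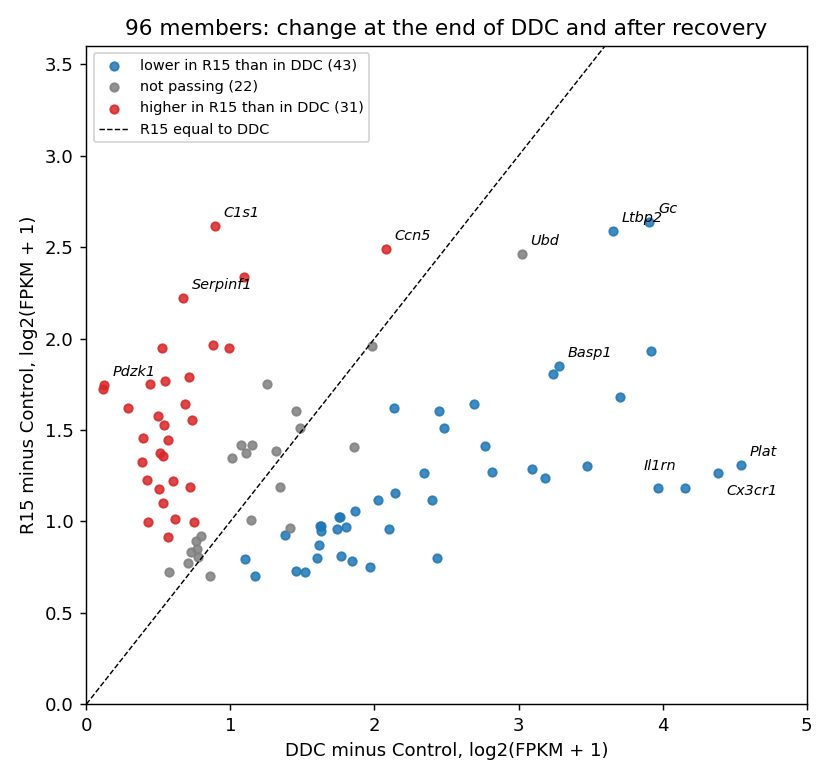
Difference from Control in log2(FPKM + 1) for the 96 members, at the end of DDC (horizontal axis) and in R15 (vertical axis), with the dashed line where both are equal. Colours show the limma call of R15 against DDC: 43 members lower lie right of the line, with Plat and Cx3cr1 farthest out, and 31 higher lie left of it, with C1s1 the highest of them in R15.

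The share of the DDC rise left in R15 orders the members. This share is the R15 mean minus the Control mean, divided by the DDC mean minus the Control mean. It was under 25% for 12 members, 25 to 50% for 27, 50 to 100% for 11 and 100% or more for 46, with a median of 83.7%. The 43 members lower in R15 kept a median of 36.4% of their rise (6.55 to 63.7%), from a median DDC mean of 16.6 FPKM to 5.81 in R15. The 31 higher members had a median share of 354% (140 to 2703%), from 1.80 FPKM in DDC to 4.47 in R15. The median fold over Control in DDC was 7.39 for the lower and 2.06 for the higher members. Of 19 members with a DDC mean of 10 times Control or more, 18 were lower in R15. The other 1, Ccn5, was higher, a call that several settings did not keep. Madcam1, at 0 in Control, has no fold and is not among the 19. The DDC mean enters both measures, so this order is a description.

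**Figure D2:**
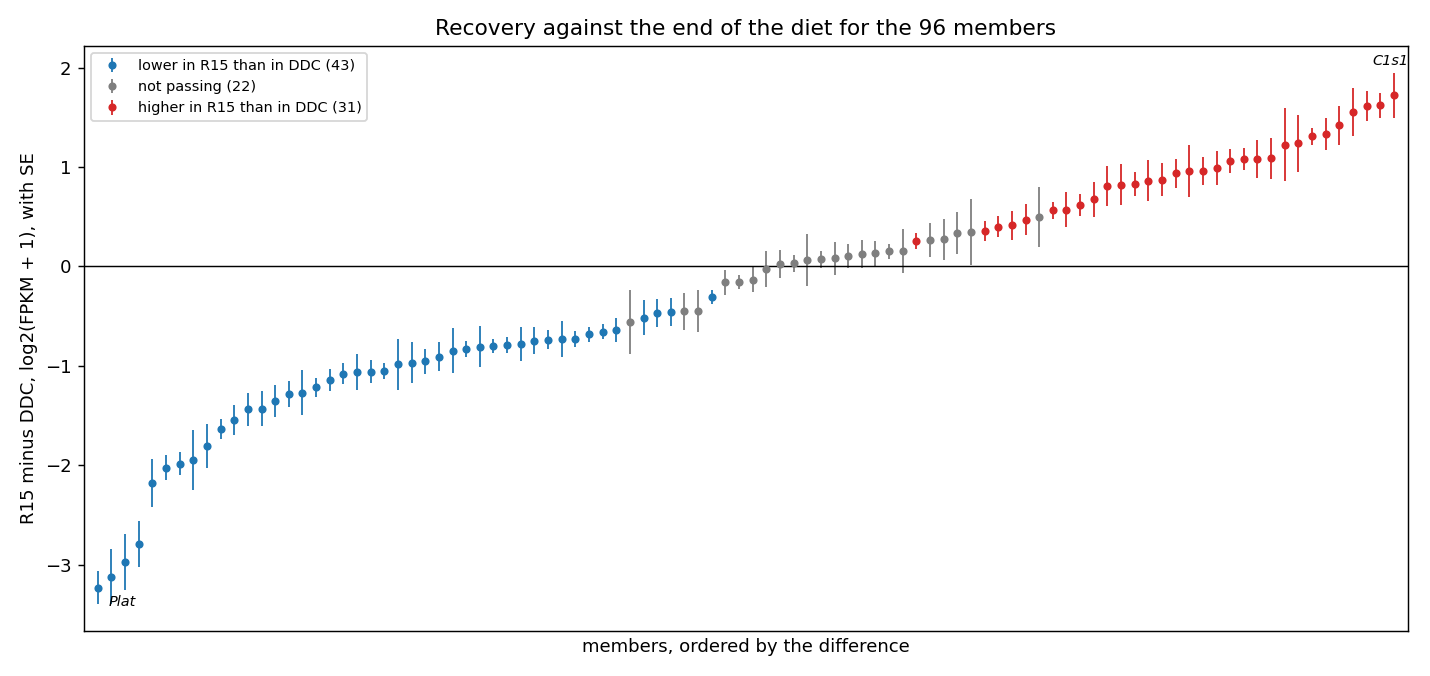
R15 minus DDC in log2(FPKM + 1) for each of the 96 members, ordered by size, with the standard error of the limma fit. Values run from -3.23 for Plat to 1.72 for C1s1, and grey points are the 22 members that did not pass.

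Chemokines and cytokines, the secreted signals that draw and steer immune cells, gave 5 members, and all 5 fell between DDC and R15. Of the other 67 tested genes of that list, 36 were lower, 10 higher and 21 did not pass. Il1rn encodes the receptor antagonist of interleukin 1. Il1rn stood at 4.78, 1.84, 4.61 and 4.73 FPKM in Control, at 79.6, 74.1, 78.9 and 64.9 in DDC and at 8.78, 11.8 and 9.32 in R15. The 3 groups did not overlap, and R15 lay much nearer to Control. The difference from DDC was -2.79 ± 0.23 log2 (SE, adjusted p = 8.3e-06). Cxcl1, a neutrophil-drawing chemokine, stood at 3.66, 5.65, 7.42 and 7.47 FPKM in Control, at 68.9, 80.8, 79.6 and 72.9 in DDC and at 15.4, 23 and 11.3 in R15. It fell by 2.18 log2 from DDC (adjusted p = 4.5e-05). Ccl9 encodes a chemokine for myeloid cells. Its R15 values were 2.73, 6.46 and 3.49 FPKM, against 0.665 to 1.39 in Control and 13.3 to 19.4 in DDC, and it fell by 1.80 log2 (adjusted p = 8.4e-05). R15 2 was the highest R15 library for Il1rn, Cxcl1 and Ccl9, as it was for the macrophage markers. Without R15 2 the fall of Ccl9 was -2.09 log2 (adjusted p = 1.4e-05). The sum of 12 neutrophil markers was 1.70 to 4.40 FPKM in Control, 43.6 to 72.9 in DDC and 4.02, 11.1 and 2.94 in R15 1, 2 and 3. The part of macrophage and neutrophil RNA in these falls was not tested.

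Il23a, the specific subunit of interleukin 23, stood at 0.596 to 1.44 FPKM in Control, at 9.70, 12.6, 10.4 and 7.67 in DDC and at 4.37, 6.13 and 3.59 in R15. It kept 40.6% of its rise and differed from DDC by -0.97 ± 0.20 log2 (SE, adjusted p = 0.0022). Ltb encodes lymphotoxin beta, a membrane cytokine that organises lymphoid tissue. Ltb stood at 9.48, 15.0, 10.3 and 8.54 FPKM in Control, at 52.4, 60.2, 46.4 and 42.7 in DDC and at 30.0, 39.9 and 34.8 in R15. All R15 libraries lay between the other groups, and 60.8% of the rise was left. The difference from DDC, -0.52 log2 (adjusted p = 0.028), was no longer past the threshold without R15 1 (0.11), R15 3 (0.064), DDC 1 (0.059) or DDC 2 (0.072), nor with all libraries rescaled to the same total (0.07). Relb encodes the NF-kB subunit of the pathway that lymphotoxin receptors use. Relb was at 11.1 to 12.3 FPKM in Control, 30.2 to 37.4 in DDC and 18.6, 21.8 and 19.1 in R15, a fall of 0.79 log2 from DDC (adjusted p = 2.8e-05). Madcam1 encodes the vascular addressin that lymphocytes bind in the gut. Madcam1 had 0 reads in all 4 Control libraries, 3.90, 4.75, 6.29 and 3.33 FPKM in DDC and 2.11, 3.26 and 1.11 in R15. Against a floor of 3 reads over the Control group, its mean was at least 569-fold higher in DDC and at least 269-fold higher in R15. Its R15 libraries were all below the DDC libraries (-0.85 log2, adjusted p = 0.0081). The same fit without the 5 libraries with pancreatic transcripts gave -0.64 log2 and an adjusted p of 0.098.

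The members with the smallest share of their rise left were of mixed roles, among them a protease, an integrin subunit and an enzyme. Plat (chr8:22757744-22782847, build mm10), tissue plasminogen activator, had the lowest share left, 6.55%. It stood at 0.578, 0.698, 0.959 and 1.69 FPKM in Control, at 43.4, 41.2, 51.8 and 40.8 in DDC and at 3.24, 4.13 and 4.08 in R15. The R15 libraries lay close together, above all Control and far below all DDC libraries. The difference from DDC was -3.23 ± 0.17 log2 (SE, adjusted p = 1.1e-06). Itga2, the collagen-binding integrin subunit, stood at 1.14, 1.38, 2.15 and 1.65 FPKM in Control, at 32.9, 32.7, 34.6 and 29.4 in DDC and at 6.69, 8.33 and 6.68 in R15. Its 3 groups did not overlap, and it fell from DDC by 2.02 log2 (adjusted p = 2e-06). Srd5a2, the steroid 5-alpha reductase, kept 19.9% of its rise, with 0.592 to 1.22 FPKM in Control, 25.7 to 28.5 in DDC and 6.09, 5.39 and 6.66 in R15 (-1.99 log2, adjusted p = 1.6e-06). Guca2b, the peptide uroguanylin, was at 2.19, 4.01 and 2.15 FPKM in R15 against 10.1 to 20.1 in DDC (-1.95 log2, adjusted p = 0.00033). Fxyd6, a regulator of the sodium pump, was at 2.05, 3.09 and 2.18 FPKM in R15 against 9.07 to 10.6 in DDC (-1.63 log2, adjusted p = 2e-06).

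Cx3cr1, the fractalkine receptor, is the only member in the macrophage marker list. It stood at 0.471, 0.597, 0.467 and 0.310 FPKM in Control, at 27.7, 33.3, 22.6 and 35.8 in DDC and at 1.37, 5.05 and 1.99 in R15. R15 2, the library with the highest macrophage sum, was also the highest of its group for Cx3cr1. The fall from DDC was -3.12 ± 0.28 log2 (SE, adjusted p = 1.2e-05), and without R15 2 it was -3.52 log2 (adjusted p = 2.2e-06). The part of macrophage RNA in this result was not tested. The table's gene model of Cx3cr1 spans several other annotated genes on either strand, so its reads are uncertain.

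Other members kept a larger share of a strong rise. Gc (chr5:89417511-89457898), the vitamin D binding protein, had the highest R15 level of all members. It stood at 45.4, 86.2, 47.2 and 37.8 FPKM in Control, at 811, 806, 821 and 713 in DDC and at 340, 286 and 355 in R15. Means were 54.2 ± 21.7 (SD, n = 4), 788 ± 50.1 (SD, n = 4) and 327 ± 36.0 (SD, n = 3) FPKM, so 37.2% of the rise was left and the groups did not overlap. The difference from DDC was -1.27 ± 0.23 log2 (SE, adjusted p = 0.00076). Ltbp2, a matrix protein that binds microfibrils, stood at 0.741, 1.75, 0.597 and 0.964 FPKM in Control, at 25.4, 25.2, 23.7 and 21.1 in DDC and at 11.2, 13.2 and 8.62 in R15. Ltbp2 is the only member in the list of matrix proteins, which does not hold Col14a1, a fibril-associated collagen and a member. Of the other 44 tested genes of that list, 12 fell between DDC and R15, 15 rose and 17 did not pass. Basp1, a membrane protein first known from growing nerve endings, stood at 6.80, 10.0, 7.79 and 8.52 FPKM in Control, at 87.0, 97.7, 102 and 70.6 in DDC and at 26.4, 42 and 29.9 in R15. Both differed from DDC, with -1.07 log2 for Ltbp2 (adjusted p = 0.00062) and -1.43 log2 for Basp1 (adjusted p = 8.2e-05). Serpine2, an inhibitor of thrombin and plasminogen activators, was at 0.206 to 0.320 FPKM in Control, 4.70 to 6.33 in DDC and 1.75, 2.42 and 1.90 in R15 (-1.08 log2, adjusted p = 2.3e-05). Neurl1a, a ubiquitin ligase, was at 0.338 to 0.491 FPKM in Control, 7.35 to 9.06 in DDC and 3.27, 3.90 and 3.39 in R15 (-1.05 log2, adjusted p = 5.2e-06).

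Tubb2b, a beta tubulin, Rasal1, a GTPase-activating protein for Ras, Socs2, a feedback inhibitor of cytokine signalling, and Ttyh2, a membrane protein, were expressed in Control and kept a moderate rise. Their R15 values were 24.4, 27.7 and 24.3 FPKM for Tubb2b, 23.7, 22.9 and 24.4 for Rasal1, 15.9, 16.8 and 16.1 for Socs2 and 19.4, 19.7 and 20.5 for Ttyh2. Their R15 libraries lay close together, and each R15 value lay between the Control and the DDC range. All 4 were lower in R15 than in DDC, with differences of -0.74, -0.68, -0.64 and -0.31 log2 in that order (adjusted p = 0.00012, 4.5e-05, 0.0011 and 0.005). With all libraries rescaled to the same total, Ttyh2 had -0.20 log2 and an adjusted p of 0.058. Tifa, an adaptor of NF-kB signalling, and Slc16a6, a monocarboxylate transporter family member, were at 6.02 to 7.33 and 2.73 to 3.00 FPKM in R15. Each overlaps a gene on the opposite strand.

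**Figure D3:**
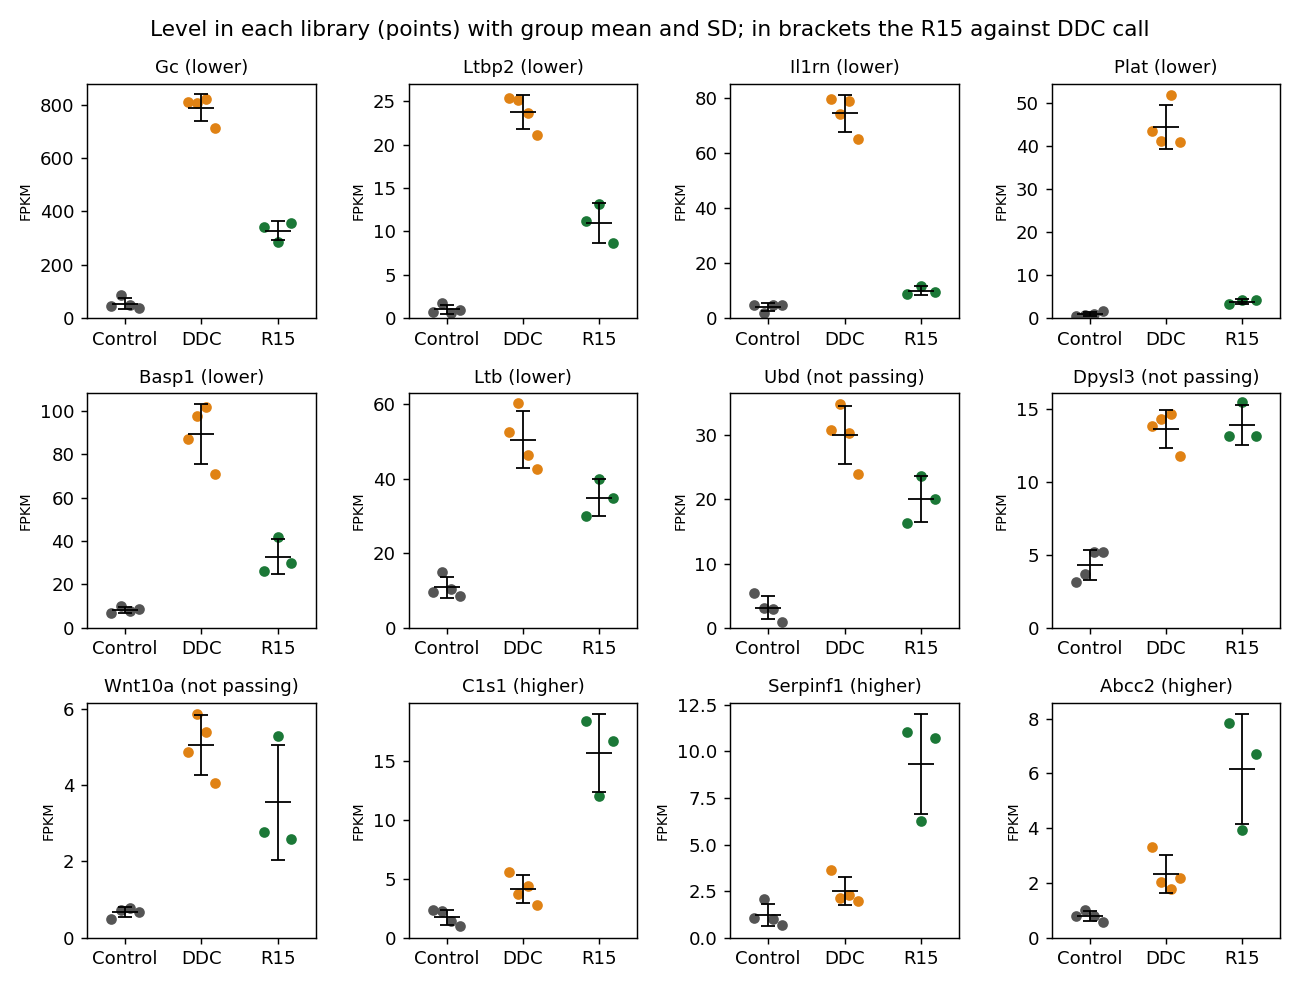
FPKM in each library of 12 members (points, 4 Control, 4 DDC and 3 R15), with the group mean and SD as bars, each panel on its own linear axis from 0. Gc, Ltbp2, Il1rn, Plat, Basp1 and Ltb came down after DDC, Ubd, Dpysl3 and Wnt10a did not pass in either direction, and C1s1, Serpinf1 and Abcc2 were higher in R15, with R15 2 the lowest R15 library in these last panels.

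For 22 members R15 and DDC did not differ past the threshold, which does not show that they were equal. Dpysl3, a cytoskeletal protein of outgrowing cells, stood at 3.17, 3.66, 5.18 and 5.18 FPKM in Control, at 13.8, 14.3, 14.7 and 11.8 in DDC and at 13.1, 15.4 and 13.1 in R15. The DDC and R15 libraries overlapped, and the difference was 0.03 log2 with a 95% interval from -0.29 to 0.34. Asz1, a germ cell protein, was likewise at 10.7 to 13.3 FPKM in DDC and at 13.3, 12.7 and 9.91 in R15, against 1.41 to 3.41 in Control. Its difference was -0.03 log2 (95% interval -0.43 to 0.37). Cspg4, the NG2 proteoglycan of mural cells and the only member in the stellate and mural cell list, was at 2.86, 2.35 and 2.57 FPKM in R15, 2.44 to 3.30 in DDC and 0.535 to 1.16 in Control. The sum of that list was 41.9, 87.6 and 43.0 in R15 1, 2 and 3, and Cspg4 was lowest in R15 2, where the sum was highest. Most of the R15 2 sum came from Pdpn (47.4 FPKM), Acta2 (16.3) and Tagln (10.7). The part of mural cell RNA in the Cspg4 values was not tested.

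Growth factors and their regulators gave 5 members that went in different directions. The secreted ligand Wnt10a stood at 0.489, 0.723, 0.784 and 0.669 FPKM in Control, at 4.87, 5.88, 5.41 and 4.05 in DDC and at 2.76, 5.30 and 2.60 in R15. R15 2 lay within the DDC range and the other R15 libraries below it. Its difference of -0.45 log2 did not pass (adjusted p = 0.055). Without R15 2 it was -0.71 log2 (adjusted p = 0.00094). Wnt5b, another Wnt ligand, was at 2.49, 2.48 and 2.57 FPKM in R15 and 1.92 to 2.69 in DDC (0.10 log2, 95% interval -0.17 to 0.37). Efna5, an ephrin ligand, was at 3.54, 4.91 and 3.17 FPKM in R15 and 4.54 to 7.0 in DDC, and its fall of 0.46 log2 (adjusted p = 0.015) did not pass without R15 1 (0.054) or R15 3 (0.068). Ccn5, a secreted matricellular protein, stood at 0.140, 0.369, 0.255 and 0.255 FPKM in Control, at 3.43, 5.96, 4.66 and 3.49 in DDC and at 6.28, 6.52 and 5.36 in R15. Its mean was 17.2 times Control in DDC and 23.8 times Control in R15. The gain over DDC, 0.41 log2 (adjusted p = 0.035), did not pass without R15 1 (0.094), R15 2 (0.1), DDC 1 (0.09) or DDC 4 (0.09). Nor did it pass with a pseudocount of 0.1 (0.11), no filter (0.069) or a filter of FPKM 5 (0.058). Median-of-ratios scaling (0.054) and a fit of DDC and R15 alone (0.063) also lost the call. Slit2, the secreted guidance cue, was at 0.753 to 0.955 FPKM in Control, 1.32 to 1.58 in DDC and 3.12, 2.26 and 2.64 in R15, and was higher than in DDC by 0.56 log2. Of the other tested genes of the list, 30 fell between DDC and R15, 52 rose and 44 did not pass.

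Ubd encodes FAT10, a ubiquitin-like protein induced by inflammatory cytokines. Ubd stood at 5.35, 3.12, 2.99 and 0.958 FPKM in Control, at 30.9, 34.8, 30.3 and 23.9 in DDC and at 16.4, 23.6 and 20.1 in R15. All R15 libraries lay below all DDC libraries, yet the difference of -0.56 log2 did not pass (adjusted p = 0.15). Without Control 4, the lowest library of the group, the same difference passed (adjusted p = 0.029). The Control libraries enter this difference only through the shared estimate of the spread. Pxdn, a peroxidase that crosslinks basement membrane collagen, was at 16.8, 18.3 and 15.9 FPKM in R15, 19.0 to 27.0 in DDC and 4.76 to 10.0 in Control. Its -0.45 log2 did not pass (adjusted p = 0.091), and without Control 1 it did (0.0044). Stx11, a membrane fusion protein of secretory cells, was at 5.6, 8.57 and 6.41 FPKM in R15 and 6.61 to 8.86 in DDC. Its difference was -0.16 log2 (adjusted p = 0.29), and -0.31 log2 without R15 2 (adjusted p = 0.025).

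Cytoskeletal proteins also split. Among 5 members of that list, Tubb2b and Krt17 were lower in R15 than in DDC, Flnc and Pdlim4 were higher and Map1b did not pass. Of the other 64 tested genes of the list, 35 were lower, 11 higher and 18 did not pass. Flnc, an actin crosslinker of muscle, stood at 0.782, 1.45, 0.843 and 0.933 FPKM in Control, at 1.78, 1.74, 1.37 and 1.57 in DDC and at 5.22, 4.14 and 4.04 in R15. Pdlim4, an actin-associated LIM protein, stood at 5.34, 5.86, 4.25 and 4.62 FPKM in Control, at 8.70, 7.99, 7.33 and 8.36 in DDC and at 12.2, 15.4 and 11.5 in R15. In both, all R15 libraries were above all DDC libraries, by 1.06 log2 for Flnc and by 0.62 log2 for Pdlim4 (adjusted p = 0.00096 for Pdlim4). Map1b, a microtubule-associated protein, was at 1.51, 3.18 and 1.43 FPKM in R15 and 1.64 to 1.91 in DDC, so R15 2 stood above and the others below every DDC library. Its difference was 0.08 log2 with all libraries and -0.17 log2 without R15 2. Cdh2, N-cadherin, was at 7.43, 5.26 and 6.49 FPKM in R15, 2.15 to 3.89 in DDC and 1.48 to 2.28 in Control, and was higher than in DDC by 0.87 log2 (adjusted p = 0.0011). Of the other 59 tested adhesion genes, 26 were lower, 18 higher and 15 did not pass. Of the other 64 tested proteases and protease inhibitors, the list of Plat, Serpine2 and Serpinf1, 32 were lower, 12 higher and 20 did not pass.

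Members higher in R15 than in DDC included the secreted proteins C1s1, F12 and Serpinf1. None of the 96 members is in the list of 20 hepatocyte markers. That list was drawn up by hand and does not hold the members F9, F12 or Hsd17b13, so nothing is read from this. C1s1 (chr6:124530345-124542359), a serine protease of the classical complement pathway, had the largest difference on the log2(FPKM + 1) scale. As a ratio of the R15 to the DDC mean it was 3.83-fold, below Car14 (12.5-fold), Pdzk1 (10.4-fold) and Ms4a4d (5.82-fold), which are low in DDC. With a pseudocount of 0.1 these 3 also had larger log2 differences than C1s1. It stood at 2.32, 2.22, 1.43 and 0.999 FPKM in Control, at 5.55, 3.66, 4.37 and 2.76 in DDC and at 18.4, 12.0 and 16.6 in R15. All R15 libraries lay above all others, with R15 2 the lowest, and the gain was 1.72 ± 0.23 log2 (SE, adjusted p = 0.00014). C1s1 has a close paralog, C1s2, with which reads may be shared. C1s1 and Itih4 are the members in the list of complement and mucosal defence genes. Of the other 40 tested genes of that list, 13 fell between DDC and R15, 5 rose and 22 did not pass. F9 and F12 encode clotting factors. F9 was at 0.120 to 0.399 FPKM in Control, 0.693 to 1.22 in DDC and 2.24, 2.01 and 2.60 in R15 (0.83 log2). F12 stood at 0.516 to 1.65 FPKM in Control, 2.26 to 5.03 in DDC and 9.50, 5.90 and 12.5 in R15 (1.24 log2, adjusted p = 0.0037). Serpinf1, pigment epithelium-derived factor, stood at 1.07, 2.06, 1.01 and 0.707 FPKM in Control, at 3.61, 2.12, 2.30 and 1.96 in DDC and at 11.1, 6.24 and 10.7 in R15 (1.55 log2, adjusted p = 0.00035). Its neighbour Serpinf2 (alpha-2-antiplasmin), 9.0 kb away on chromosome 11, was at 5.14, 2.89 and 7.39 FPKM in R15 and 2.10 to 6.18 in DDC, and did not pass (adjusted p = 0.38). Itih4, an acute-phase inhibitor, was at 8.52, 8.93 and 12.1 FPKM in R15 and 7.55 to 11 in DDC (0.06 log2, 95% interval -0.51 to 0.64).

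Several single transporters and metabolic enzymes were higher in R15 than in DDC. In the list of membrane transporters and channels, which holds the members Aqp9 and Clca3a1, 31 of the other 93 tested genes were lower, 18 higher and 44 did not pass. Abcc2, the canalicular exporter of conjugated bilirubin, stood at 0.781, 1.02, 0.777 and 0.588 FPKM in Control, at 3.33, 2.03, 1.79 and 2.17 in DDC and at 7.85, 3.95 and 6.73 in R15 (1.09 log2, adjusted p = 0.0011). Aqp9, a glycerol and water channel, was at 0.198 to 0.623 FPKM in Control, 0.643 to 1.02 in DDC and 2.87, 1.73 and 2.64 in R15 (0.93 log2). Slc6a13, a transporter of GABA and taurine, was at 0.384 to 0.924 FPKM in Control, 0.758 to 2.18 in DDC and 6.03, 4.05 and 5.83 in R15 (1.42 log2). In each, R15 2 was the lowest R15 library and still above every DDC library. Pdzk1, a scaffold of apical transporters, and Car14, a membrane carbonic anhydrase, were barely raised under DDC. Pdzk1 stood at 0.0795 to 0.263 FPKM in Control, at 0.245 to 0.366 in DDC and at 3.25, 2.18 and 3.62 in R15. Car14 stood at 0.105 to 0.177 FPKM in Control, at 0.0908 to 0.404 in DDC and at 3.38, 1.80 and 3.19 in R15. Most of their difference from Control lay between DDC and R15, with differences from DDC of 1.62 log2 for Pdzk1 and 1.61 log2 for Car14. Neither was tested without R15 2, since the filter then removed both. Both overlap protein-coding genes on the opposite strand. Abca6, a lipid transporter of the ABC family, was at 5.97, 3.31 and 4.62 FPKM in R15 against 0.890 to 1.57 in DDC (1.33 log2). Nnmt, nicotinamide N-methyltransferase, was at 3.11, 3.15 and 2.61 FPKM in R15 against 0.694 to 1.39 in DDC (0.96 log2). Gldc, the glycine decarboxylase, was at 3.14, 2.18 and 3.00 FPKM in R15 against 0.615 to 1.33 in DDC (0.99 log2).

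Ms4a4d and Enpp2 had unlike library patterns. Ms4a4d, a membrane protein of the MS4A family, stood at 0.0375, 0.114, 0.0382 and 0.0492 FPKM in Control, at 0.516, 0.519, 0.361 and 0.375 in DDC and at 2.83, 2.21 and 2.70 in R15. Its R15 mean was 43.1 times its Control mean and its difference from DDC was 1.31 ± 0.09 log2 (SE). It too was not tested without R15 2. Its Control values rest on 23 reads in all 4 libraries. Enpp2, autotaxin, which makes the lipid signal lysophosphatidic acid, stood at 0.459 to 0.682 FPKM in Control, at 1.37 to 1.87 in DDC and at 4.38, 5.18 and 3.58 in R15 (1.08 log2). Enpp2 was highest in R15 2, unlike most members of the higher group.

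A further 40 members lay outside the rule for named genes, 16 of them lower in R15 than in DDC (-1.54 to -0.47 log2), 9 higher (0.25 to 1.08 log2) and 15 not passing (-0.16 to 0.50 log2). Steap4, a metalloreductase, was at 0.822 to 2.00 FPKM in Control, 12.0 to 16.7 in DDC and 4.81, 5 and 4.64 in R15 (-1.35 log2, adjusted p = 7.4e-05). Gcgr, the glucagon receptor, was at 0.148 to 0.535 FPKM in Control, 0.427 to 1.15 in DDC and 2.11, 1.37 and 2.93 in R15 (0.81 log2). Hsd17b13, a lipid droplet enzyme of hepatocytes, was at 9.94, 5.32 and 13.5 FPKM in R15 and 3.83 to 9.19 in DDC. Its 0.50 log2 did not pass (adjusted p = 0.17), and without R15 2 it was 0.83 log2 (adjusted p = 0.025). Without R15 1, Rrad, Adgb, Arhgap42 and Dst no longer passed (adjusted p = 0.061, 0.084, 0.079 and 0.057). Adgb did not pass without R15 2 either (adjusted p = 0.064).

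Library differences ran with these groups. R15 2 was the highest R15 library for 32 of the 43 members lower in R15 than in DDC, and the lowest for 21 of the 31 higher members. The same shares over all genes tested were not taken, so nothing particular to the members is read from these counts. Over the higher members the median R15 value was 112, 79 and 106% of the group mean in R15 1, 2 and 3. Over the lower members R15 2 stood at 116%. Control 2 and DDC 1 had the highest median of the higher members in their groups, and also the highest hepatocyte sums, 5439 and 3035. Control 2 was also the highest Control library for the lower (106%) and not passing members (117%). The hepatocyte marker sum was likewise lowest in R15 2, and all R15 sums were above all DDC sums. Other libraries did not match. Control 1 had the lowest Control sum, 4653, but higher members at 93.4%, above Control 3 (84.7%) and Control 4 (77.7%). R15 3 had the highest R15 sum, 4400, but R15 1 the highest median of the higher members. The single markers were mixed: 9 of the 20 had every R15 library above every DDC library, 1 had every one below and 10 overlapped. The R15 mean was above the DDC mean for 12 and below it for 8. Between Control and R15 the list was mixed too. All 3 R15 sums lay below all 4 Control sums. Of the 20 genes, Apob, Serpina1a, Serpina1c and Tat had every R15 library above every Control library, Alb and Ttr every R15 library below, and 14 overlapped. Cps1 was at 1.04 to 1.28 FPKM in R15 and 0.678 to 22 in Control, and Asgr1 was at 0.227 to 0.620 in R15 and 0.271 to 1.08 in Control. Alb was at 1432 to 1990 FPKM in R15 and 2385 to 3117 in Control. The part of hepatocyte RNA in the gains was not tested. Without R15 2, 45 members were lower and 28 higher than in DDC, of 93 tested (Car14, Ms4a4d and Pdzk1 fell to the filter), and 43 and 26 of these were the same members as with all libraries.

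**Figure D4:**
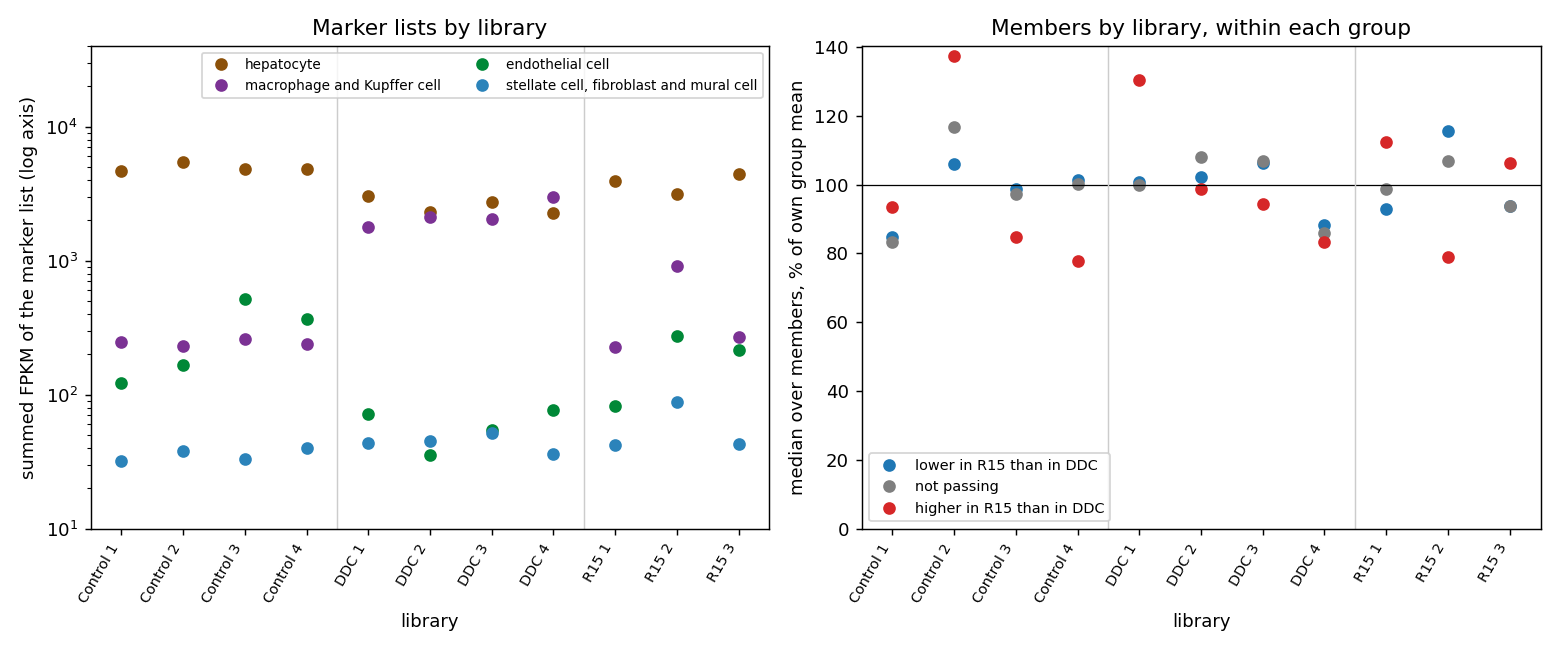
Left, summed FPKM of 4 marker lists in each of the 11 libraries on a log axis. Right, for the lower, not passing and higher members, the median over members of each library's FPKM as a percent of the mean of its own group. Among the R15 libraries, R15 2 has the highest macrophage sum (912) and the lowest higher members (79% of their group mean), and Control 2 and DDC 1 have the higher members at their highest.

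Members that are neighbours in the genome moved to a differing degree. Mug1 and Mug2, the murinoglobulins, are paralogous protease inhibitors 117.7 kb apart on chromosome 6. Mug1 stood at 1.69, 2.98, 1.62 and 0.654 FPKM in Control, at 5.0, 1.70, 3.33 and 1.99 in DDC and at 8.78, 4.77 and 11.4 in R15. Mug2 stood at 0.363, 0.686, 0.267 and 0.170 FPKM in Control, at 2.99, 1.04, 1.92 and 1.24 in DDC and at 4.8, 2.67 and 5.77 in R15. Within each group the libraries had the same order for both genes. Gains over DDC were 1.22 log2 for Mug1 (adjusted p = 0.015) and 0.96 log2 for Mug2. The gain of Mug1 did not pass without R15 3 (0.98 log2, adjusted p = 0.065). Reads that fit both paralogs may have been counted for either, so their values are uncertain. Clca3a1 and Clca3a2, epithelial proteins of the chloride channel accessory family, lie 35.6 kb apart on chromosome 3 and carry the same limit. Clca3a1 stood at 0.554 to 1.71 FPKM in Control, at 1.74 to 2.52 in DDC and at 4.13, 4.48 and 3.37 in R15 (0.68 log2, adjusted p = 0.0068). Clca3a2 stood at 1.53 to 4.17 FPKM in Control, at 4.93 to 7.68 in DDC and at 8.15, 8.55 and 7.04 in R15 (0.33 log2, adjusted p = 0.2). In addition 38 of the 96 members overlap another gene model, among them the pairs Dst with AC123072.1 and Spaca7 with D630011A20Rik, which are both members. AC123072.1 lies wholly within Dst, and their reads over R15 were 40323 and 43138. They may largely be the same reads, yet both count among the higher members. Spaca7 and D630011A20Rik overlap only at their ends.

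The series title names NF-Y, a transcription factor that binds the motif CCAAT. RefSeq promoters on build GRCm38.p6 were matched for 66 of the 96 members, under 80%, so a share of members with a motif is void and none is given. Among all 16578 matched protein-coding promoters, 36.1% held CCAAT and 6.19% held the AP-1 motif TGANTCA on either strand in the 250 bases upstream of the start. These windows are printed, on the gene's strand, for the paralogs Mug1 and Mug2, to show how alike they are, and for Gc and C1s1, the member with the highest R15 level and the one with the largest difference on the log2(FPKM + 1) scale. Capitals mark a match on either strand to CCAAT, which then reads ATTGG on the printed strand if reversed, or to the AP-1 motif. A match is a description of the letters and not a site.
Mug1 (chr6:121838291-121838540, plus strand): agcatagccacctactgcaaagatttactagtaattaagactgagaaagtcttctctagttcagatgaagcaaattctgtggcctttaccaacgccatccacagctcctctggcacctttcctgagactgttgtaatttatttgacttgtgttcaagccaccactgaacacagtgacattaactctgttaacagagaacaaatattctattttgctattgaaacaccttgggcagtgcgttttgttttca
Mug2 (chr6:122006548-122006797, plus strand): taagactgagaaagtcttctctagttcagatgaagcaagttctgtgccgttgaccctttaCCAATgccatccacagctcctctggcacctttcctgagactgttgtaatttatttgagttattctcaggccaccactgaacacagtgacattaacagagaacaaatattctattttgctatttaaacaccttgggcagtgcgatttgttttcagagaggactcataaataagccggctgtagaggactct
Gc (chr5:89457899-89458148, minus strand): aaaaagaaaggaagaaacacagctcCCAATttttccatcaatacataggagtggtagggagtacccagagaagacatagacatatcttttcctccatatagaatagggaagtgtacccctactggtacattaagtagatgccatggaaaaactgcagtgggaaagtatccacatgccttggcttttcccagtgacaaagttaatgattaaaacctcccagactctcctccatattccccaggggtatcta
C1s1 (chr6:124542360-124542609, minus strand): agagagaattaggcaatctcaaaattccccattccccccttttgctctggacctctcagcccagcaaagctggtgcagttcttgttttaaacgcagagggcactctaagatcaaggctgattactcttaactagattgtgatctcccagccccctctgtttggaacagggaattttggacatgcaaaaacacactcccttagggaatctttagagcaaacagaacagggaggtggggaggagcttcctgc
Over 222 aligned bases, 88.3% were identical between the Mug1 and Mug2 windows, and only the Mug2 window held CCAAT. Gc had 1 CCAAT and C1s1 held neither motif.

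Most of the lists held few or no members. There were none in the lists for DNA replication and mitosis, MHC class II and antigen presentation, interferon response, S100 proteins and annexins, or tight junction proteins. All 42 tested genes of the DNA replication list fell between DDC and R15, with a median of -1.96 log2. Of the 96 members, 31 were in a list by role and 65 in none.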

How the data were processed

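The values are FPKM as deposited by the authors in a single table, which per the file headers also holds gene IDs, symbols, types, lengths and coordinates. The submitters' processing notes name build mm10, and the labels' protocols name a stranded mRNA kit. The sources used here do not name the aligner, the counter, its strand setting or the release of the gene models. Whole reads came out for 100% of nonzero FPKM within 0.001 when a library's smallest nonzero value was taken as 1 read and each length as the listed length plus 1, both inferred. These reads gave the depth (49339240 to 72929107 per library), the floor of 3 reads and 1 alternative fit.

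Members and gene lists were chosen with earlier results of these data known. The main test used log2 of FPKM plus a pseudocount of 1, which understates changes of low genes, for the 15264 genes that reached FPKM 1 in 3 or more libraries. Limma 3.58.1 under R 4.3.3 fitted a mean per group over all 11 libraries, with a mean-variance trend, and 2-sided p-values were adjusted by Benjamini-Hochberg over all genes, with a threshold of 0.05. Intervals are 95% intervals of that fit, unadjusted. The fit was tested on simulated data.

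Genes named with values were chosen by rule: the 20 members with the largest ratio of lowest R15 to highest Control, the 10 with the highest R15 mean, the 10 largest rises and 10 largest falls from DDC, up to 4 per list, and 3 on either side of the threshold. Dpysl3, Asz1, Wnt5b, Serpinf2, Clca3a2, Krt17, Steap4, Gcgr, Hsd17b13, Col14a1, Rrad, Adgb, Arhgap42, Dst and Tfr2 were named after their values were seen. Some members that the rule names are not reported here. Same-numbered libraries of different groups had correlations of -0.28 to 0.30 between their deviations from the group means, so the numbers were not used as pairs. Alternatives were other pseudocounts, filters, scalings, limma voom on the reads, a replicate term, and fits without single libraries. Promoter sequences are RefSeq's, on GRCm38.p6, and were read in the 250 bases upstream of the start. Python 3.11.15 and pandas 2.3.3 made the tables.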

Additional observations from a re-analysis of the deposited data

Results flagged for a closer look

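In the groups of 4 libraries of the named members, 11 of 108 had a highest or lowest library that stood apart from the rest, with a gap to its neighbour above Dixon's 95% limit. The 108 include Madcam1 in Control, which is at 0 in every library and could not be tested. Chance flags about 1 in 20 groups, but these groups share libraries and are not independent. In Control, library 2 was the highest for Ms4a4d (0.114 FPKM), Car14 (0.177) and Cdh2 (2.28), and the lowest for Il1rn (1.84, with the next at 4.61). Control 1 was the lowest for Neurl1a (0.338) and Pxdn (4.76, with the next at 9.51). Control 4 was the highest for Rasal1 (13). In DDC, library 4 was the lowest for Gc (713, with the next at 806), Tubb2b (37.3) and Socs2 (21.5), and DDC 1 was the highest for F9 (1.22).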

How the results depend on the processing

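Over the settings run, the count of members lower in R15 than in DDC was 36 to 46 and the count higher was 8 to 32. The count of 8 came from a filter of FPKM 5, under which only 60 members were tested. Leaving out single libraries gave 40 to 45 lower and 23 to 31 higher. With a replicate block, using the library numbers that do not pair the samples, 45 were lower and 31 higher, including all 43 and 31 of the fit without it. Limma voom on reads gave 44 and 31. In every setting run where they were tested, 35 of the 43 lower and 25 of the 31 higher members passed. Among these 25 are Aqp9, Car14, F9, Gcgr, Gldc, Ms4a4d, Nnmt and Pdzk1, which reached the main filter only through R15. Their passing is therefore no support. Nor is that of other higher members with a DDC mean under 2 FPKM, whose direction the R15 floor of the rule fixed. The counts of higher members given here include such members too. Reversed directions were found for 2 named members that did not pass. Map1b had 0.08 log2 in the main fit, -0.17 without R15 2, and -0.17 to 0.22 over fits without single libraries. Itih4 had 0.06 in the main fit, -0.079 with the replicate block, -0.024 without DDC 4, -0.0037 without the 5 libraries with pancreatic transcripts, and -0.080 (without R15 3) to 0.15 over fits without single libraries. The cause was not tested. Of 1254 values of single members chosen by the naming rule, 1212 kept direction and side of the threshold, 24 lost the call and 13 gained it. The number of members moves with the rule: 168 at the lower and 40 at the higher ratio tried, 50 at an R15 mean of 5 FPKM, 127 at 1 FPKM, 79 with median-of-ratios scaling and 97 with a common total, of which 91 are shared. Leaving out single libraries gave 92 to 133. Without the 5 libraries with pancreatic transcripts, 278 genes met the rule with fewer libraries to satisfy, 92 of the 96 among them. That setting, leaving out Control 1 and Control 3 together, and testing protein-coding genes alone were chosen after seeing the data. Scaling to a common total moved the median R15 to DDC difference of all genes from 0.04 to 0.14 log2. Of the members, 46 had R15 means under 5 FPKM, where reads per library and the pseudocount limit the precision most.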

Other observations

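The 12 genes left out by symbol met the same conditions at other levels. Rgs5 had means of 37.5, 452 and 175 FPKM in Control, DDC and R15. Ccl2 had 0.506, 207 and 30.9 FPKM, Vcam1 30.2, 284 and 83.9, and Hp 12.6, 169 and 78.7. Serpina1b had 6.56, 25.8 and 62.9 FPKM and Fgb 3.02, 16.3 and 20.6, higher in R15 than in DDC by their means.

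Another 12 genes that are not protein-coding met the 3 conditions. Ighv14-1, a variable segment of the antibody heavy chain, had means of 0.133, 0.979 and 9.87 FPKM in Control, DDC and R15. Mir6973a, whose gene model lies within Ltb, had 16.3, 50.9 and 39.0 FPKM, a value that cannot be told apart from reads of Ltb in polyadenylated RNA.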
